A study of Mus musculus with 6 samples.

Results

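Immunoglobulin variable segments are the short coding units from which B cells assemble the antigen-binding end of an antibody. The table held 346 rows named for segments of the heavy-chain locus (Ighv), the kappa light-chain locus (Igkv) or the lambda light-chain locus (Iglv), among 55291 rows in all. A segment was taken when its value was above 0 in at least 3 of the 6 libraries, which kept 188: 90 of 183 Ighv rows, 95 of 160 Igkv rows and all 3 Iglv rows. The members were chosen by their measured values, detection over both groups together, so their presence is a description. The 25 segments just inside that rule, above 0 in exactly 3 libraries, had mean levels between 0.180 and 9.39 TPM, and the 34 just outside it, above 0 in 2 libraries, had mean levels between 0.111 and 4.54 TPM. Rows outside the rule held 427 of the 78567 reads on variable segments, or 0.543%. GENCODE M21 types 178 of the 188 as variable genes and 10 as pseudogenes.

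The libraries were made from polyadenylated RNA of tumour-associated macrophages (TAM) from mouse liver tumours, in a study of hepatocellular carcinoma. There were 3 libraries of TREM2+ TAM, which carry a lipid-sensing receptor of myeloid cells, and 3 of TREM2- TAM, labelled as lacking it. The labels used here give no strain, age, tumour model, gate or other agent for either group. They also do not tie replicates to animals, and the spread behind each p-value may therefore be technical. Levels (called TPM) are length-scaled values brought to a total of 1000000 in each library, and all tests are limma fits over all genes on log2(TPM + 1).

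A developing B cell joins 1 variable segment to diversity and joining segments at the heavy-chain locus. At a light-chain locus it joins 1 variable segment to a joining segment. The promoter upstream of the chosen segment then comes under control of the enhancers near the constant genes, so a mature B cell or plasma cell makes transcripts of the segment it chose and few of the others. Each cell and its offspring therefore carry their own heavy and light segment, and the mix of segments in bulk RNA reflects which B-lineage cells gave RNA and how much each gave. Plasma cells make far more immunoglobulin RNA per cell than resting B cells. Macrophages do not assemble these segments in the usual view, but bind and take up finished antibodies through Fc receptors.

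Many segments are near-copies of each other, which limits what short reads can assign. Of the 188 segments, 63 shared at least one stretch of 100 bases with another segment and 125 shared none, and the closest other segment was identical at a median of 91.7% of bases. How the authors counted reads that match several places is not given in the sources used here, so levels of such segments are uncertain. For 4 segments that the comparison below turns on, the last 280 bases of the variable exon, all coding, are printed above those of their closest other segment, from GENCODE M21 transcripts (mm10), with capitals at bases that differ within the pair or have no partner in it.
Ighv1-15: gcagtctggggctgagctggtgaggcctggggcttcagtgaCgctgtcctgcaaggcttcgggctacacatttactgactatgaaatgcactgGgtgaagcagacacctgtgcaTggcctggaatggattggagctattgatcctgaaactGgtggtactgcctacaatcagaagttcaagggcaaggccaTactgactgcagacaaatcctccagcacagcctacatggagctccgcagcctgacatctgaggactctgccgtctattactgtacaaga
Ighv1-23: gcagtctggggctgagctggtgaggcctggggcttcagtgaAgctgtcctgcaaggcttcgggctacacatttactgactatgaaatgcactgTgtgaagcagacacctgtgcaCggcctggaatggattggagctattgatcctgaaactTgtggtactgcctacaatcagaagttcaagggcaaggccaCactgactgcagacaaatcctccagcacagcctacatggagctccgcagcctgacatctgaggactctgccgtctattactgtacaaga
Ighv1-52: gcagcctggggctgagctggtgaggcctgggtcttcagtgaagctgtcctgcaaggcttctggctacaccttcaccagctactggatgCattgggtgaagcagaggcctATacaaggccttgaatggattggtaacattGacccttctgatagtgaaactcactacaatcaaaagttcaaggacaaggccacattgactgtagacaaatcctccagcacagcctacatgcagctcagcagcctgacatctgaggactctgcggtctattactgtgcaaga
Ighv1-61: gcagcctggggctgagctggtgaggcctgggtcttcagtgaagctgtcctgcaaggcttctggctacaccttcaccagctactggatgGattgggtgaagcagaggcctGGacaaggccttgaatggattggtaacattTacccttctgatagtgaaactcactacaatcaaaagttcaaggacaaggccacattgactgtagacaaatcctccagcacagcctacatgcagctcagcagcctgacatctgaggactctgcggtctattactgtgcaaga
Igkv13-84: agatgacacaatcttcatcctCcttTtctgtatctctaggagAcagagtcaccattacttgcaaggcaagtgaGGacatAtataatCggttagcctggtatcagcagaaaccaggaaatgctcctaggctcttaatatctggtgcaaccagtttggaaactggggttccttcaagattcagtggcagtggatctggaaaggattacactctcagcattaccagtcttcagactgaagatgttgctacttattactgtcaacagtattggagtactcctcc
Igkv13-85: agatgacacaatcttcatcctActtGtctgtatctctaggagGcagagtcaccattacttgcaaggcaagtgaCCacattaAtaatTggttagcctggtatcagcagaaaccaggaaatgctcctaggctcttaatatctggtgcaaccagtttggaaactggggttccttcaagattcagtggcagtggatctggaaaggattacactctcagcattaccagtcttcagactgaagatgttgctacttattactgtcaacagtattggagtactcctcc
Igkv6-15: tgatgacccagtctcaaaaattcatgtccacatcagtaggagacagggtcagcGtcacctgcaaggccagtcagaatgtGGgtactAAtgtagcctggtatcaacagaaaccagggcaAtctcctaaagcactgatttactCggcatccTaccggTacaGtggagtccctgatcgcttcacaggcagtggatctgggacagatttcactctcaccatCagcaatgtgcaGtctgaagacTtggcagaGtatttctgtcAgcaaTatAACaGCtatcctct
Igkv6-14: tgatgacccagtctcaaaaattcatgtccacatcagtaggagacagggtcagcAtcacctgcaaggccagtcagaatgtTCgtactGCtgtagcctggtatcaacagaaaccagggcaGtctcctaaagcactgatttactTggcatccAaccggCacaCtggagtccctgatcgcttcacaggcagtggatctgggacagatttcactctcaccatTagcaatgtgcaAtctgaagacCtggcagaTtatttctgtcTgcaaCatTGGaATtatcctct
The heavy-chain stretches lie at chr12:114657353-114657632 (Ighv1-15), chr12:114764450-114764729 (Ighv1-23), chr12:115145487-115145766 (Ighv1-52) and chr12:115359140-115359419 (Ighv1-61), all on the minus strand. The kappa stretches lie at chr6:68939788-68940067 on the plus strand (Igkv13-84) and, on the minus strand, at chr6:68930269-68930548 (Igkv13-85), chr6:70406469-70406748 (Igkv6-15) and chr6:70434952-70435231 (Igkv6-14). The first pair differs at 5 of 280 bases and the second at 4. Igkv13-84 and Igkv13-85 differ by 6 substitutions and 2 unpaired bases, and Igkv6-15 and Igkv6-14 differ at 21 bases. Ighv1-52 shared 29.4% of its 100-base stretches with other segments and Igkv13-84 shared 37.9%, while Ighv1-15 and Igkv6-15 shared none.

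Recovered depth ranged from 11494687 to 19932502 reads per library, and replicates differed by more than sampling noise in every pair (chi-square over its degrees of freedom from 65.7 to 200). TREM2- replicate 1 stood apart for the segments: it was the highest of the 6 libraries for 91 of the 188. Libraries also differed within both groups in other transcripts. The mitochondrial share of TPM ran from 3.78% to 10.02% among TREM2+ and from 2.42% to 12.3% among TREM2- libraries, and that of the Gm10800 repeat family from 0.664% to 16.3% and from 0.399% to 22.9%. Trem2, given as a check of the labels, averaged 37.0 ± 5.51 TPM among TREM2+ and 19.5 ± 2.28 TPM among TREM2- libraries (SD, n = 3 each), with no overlap. Its log2 fold change was 0.89 ± 0.22 with an adjusted p of 0.0855 in limma, which is not under 0.05. Trem2 RNA was thus present in the TREM2- libraries too.

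Variable-segment transcripts were present in all 6 macrophage libraries, and their summed level varied more among the TREM2- replicates than between the group means. The 188 segments summed to 2393, 4345 and 3600 TPM in TREM2+ replicates 1, 2 and 3, and to 9444, 2636 and 5413 TPM in TREM2- replicates 1, 2 and 3. TREM2- replicate 1 was the highest library and TREM2+ replicate 1 the lowest, with TREM2- replicate 2 next to it, so the groups overlapped. The means were 3446 ± 985 and 5831 ± 3423 TPM (SD, n = 3 each), a ratio of 0.591, and the ratio without TREM2- replicate 1 was 0.856. No test was made of these sums.

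Heavy-chain segments summed to 522, 1112 and 988 TPM in the TREM2+ libraries, against 2324, 592 and 1505 TPM in TREM2- libraries. Kappa segments, the light chains most mouse antibodies use, summed to 1700, 2844 and 2322 TPM in the TREM2+ libraries, against 6310, 1870 and 3547 TPM in TREM2- libraries. Lambda segments summed to 171, 390 and 290 TPM in the TREM2+ libraries, against 809, 174 and 361 TPM in TREM2- libraries. At each locus the groups overlapped, because TREM2- replicate 2 lay within the TREM2+ range while TREM2- replicate 1 lay far above it. In bulk RNA, fewer cells of a type and less RNA per cell cannot be told apart.

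**Figure D1:**
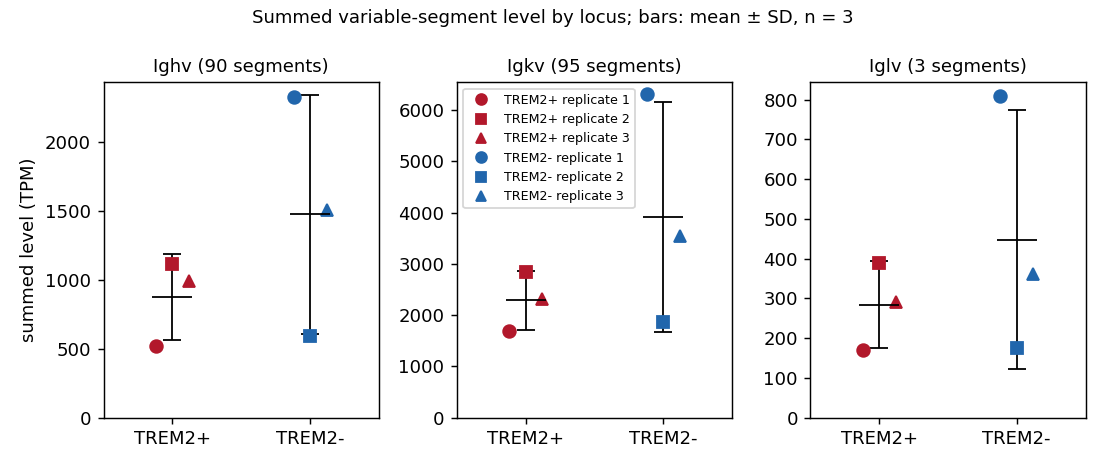
Summed level of the variable segments in TPM (linear axes from 0, a separate scale per locus) for each TREM2+ and TREM2- library, with bars for mean ± SD (n = 3). At all 3 loci TREM2- replicate 1 is the highest library (2324 TPM for Ighv, 6310 TPM for Igkv, 809 TPM for Iglv) and the groups overlap.

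The split between loci was nearly constant while the total moved. Ighv made up 24.9 ± 2.88% of the variable-segment TPM in TREM2+ libraries and 25.0 ± 2.69% in TREM2- libraries, Igkv 67.0 ± 3.55% and 67.8 ± 2.82%, and Iglv 8.06 ± 0.911% and 7.28 ± 1.11% (SD, n = 3 each). The ratio of kappa to lambda segment TPM was 9.94, 7.30 and 8.0 in the TREM2+ libraries and 7.80, 10.7 and 9.83 in TREM2- libraries. Kappa and heavy-chain variable segments kept a near-constant ratio to the constant genes they are spliced to, and no such ratio was taken for lambda. The ratio of Igkv TPM to Igkc TPM was 0.739 ± 0.0549 in TREM2+ libraries and 0.718 ± 0.0391 in TREM2- libraries, and that of Ighv to the heavy-chain constant genes was 1.05 ± 0.0535 and 1.04 ± 0.134 (SD, n = 3 each). These ratios are within libraries and cannot show which of their terms changed.

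Markers of B cells followed the segments among the TREM2- libraries and not among the TREM2+ libraries. Of 20 B cell genes none was at 0 in every library, and 19 were highest in TREM2- replicate 1. Leaving out Cd74 and Cd37, which other immune cells also express, the other 18 summed to between 185 and 212 TPM in TREM2+ libraries and to 504, 82.6 and 228 TPM in TREM2- replicates 1, 2 and 3. Cd79a, a signalling chain of the B cell receptor, stood at 70.7, 61.9 and 68.8 TPM in the TREM2+ libraries, against 171, 23.4 and 88.0 TPM in TREM2- libraries. Jchain, which links antibody units in plasma cells, stood at 56.2, 128 and 59.0 TPM in the TREM2+ libraries, against 330, 74.0 and 170 TPM in TREM2- libraries. The summed variable level was 33.9, 70.2 and 52.3 times that of Cd79a in the TREM2+ libraries and 55.4, 113 and 61.5 times in TREM2- libraries, so the 2 did not move in a fixed ratio, and TREM2- replicate 2 had the most variable RNA per Cd79a. None of the 16 plasma cell genes was at 0 in every library. The 16 summed to between 787 and 1181 TPM in TREM2+ libraries and between 949 and 1336 TPM in TREM2- libraries. That sum did not follow the segments, and Xbp1, which many cell types express, was its largest term in each library. Of the 16 genes, 9 were highest in TREM2- replicate 1, Jchain among them, so the sum does not speak for each gene. None of the 17 B cell and 15 plasma cell genes that were tested passed the threshold. The part of these markers in the differences between segments was not tested.

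The comparison of TREM2+ with TREM2- libraries, segment by segment, found lower levels of 7 segments in the TREM2+ libraries and higher levels of none, at an adjusted p under 0.05 (limma with Benjamini-Hochberg adjustment over 13788 genes). Of the 188 segments 148 had at least 1 TPM in at least 3 libraries and were tested, 69 Ighv, 76 Igkv and 3 Iglv, and 40 fell below that filter. Of all genes tested, 0.37% were lower and 2.05% higher (51 and 282 genes; 89 and 195 on the deposited values without rescaling), against 4.73% of the tested segments lower. The 7 include Ighv1-41, which reached the filter through the TREM2- libraries alone and so had to differ, and without it 6 of 147 were lower, or 4.08%. Segments of a library come from the same cells and are not independent of each other. The fold change was below 0 for 110 tested segments and above 0 for 38, with a median log2 fold change of -0.77 over the segments and -0.09 over all genes tested. At an unadjusted p under 0.05, 25 segments were lower and 2 higher, or 16.9% and 1.35% of those tested, beside 5.34% and 7.45% of all genes tested. The TREM2+ libraries all lay below the TREM2- libraries for 13 tested segments (12 without Ighv1-41), and all above them for 1, beside 7.62% and 9.07% of all genes tested.

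The number of segments lower depended on single libraries. Leaving out TREM2- replicate 1 gave 3, TREM2- replicate 2 gave 24, TREM2- replicate 3 gave 2 and TREM2+ replicate 2 gave 11, and leaving out either of the other TREM2+ libraries gave 7. When the segments of each library were first brought to a common sum, an alternative chosen after seeing the data, 3 were lower (Ighv1-15, Ighv1-52 and Igkv12-41) and 1 was higher (Ighv5-9-1). All 7 segments kept a negative fold change under every setting in which they were tested.

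**Figure D2:**
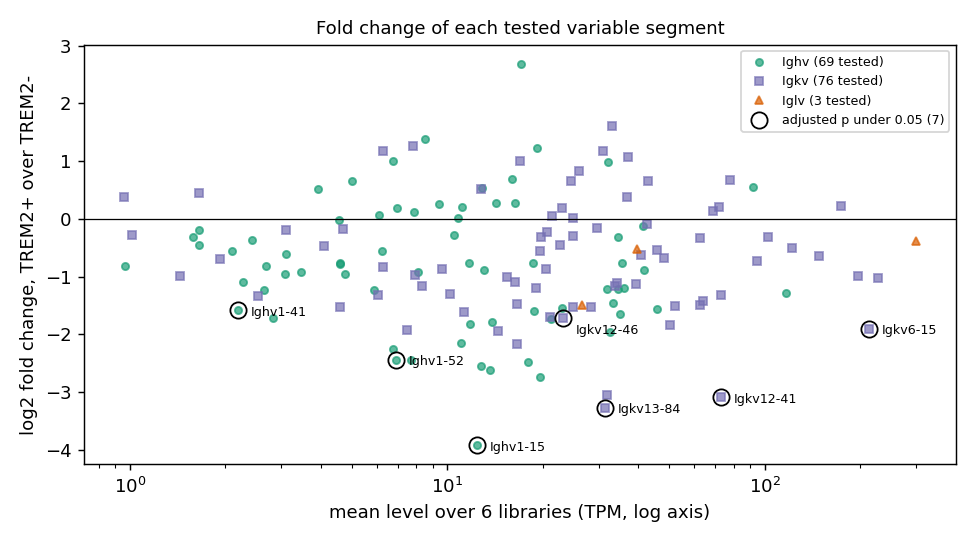
The log2 fold change of TREM2+ over TREM2- libraries, on the log2(TPM + 1) scale, for the 148 tested segments against their mean TPM over the 6 libraries (log axis), by locus, with rings around the 7 past the threshold. Most points lie below 0 (110 of 148), and the 7 ringed segments span low levels (Ighv1-41) and high levels (Igkv6-15).

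At the heavy-chain locus, on chromosome 12 between positions 113572927 and 116010093 (mm10), 3 of 69 tested segments fell, all of the Ighv1 family, the largest mouse heavy family, and 66 did not pass. Ighv1-15 (ENSMUSG00000103254.1) stood at 0.370, 0.400 and 1.33 TPM in the TREM2+ libraries, against 20.5, 22.9 and 29.2 TPM in TREM2- libraries. The 2 groups were far apart and the 3 TREM2- libraries lay close together, TREM2- replicate 1 included. The log2 fold change was -3.92 ± 0.28 with an adjusted p of 0.0022 (limma, Benjamini-Hochberg). Behind these levels stood 1, 1 and 3 reads against 64, 60 and 66, a ratio per sequenced read of 0.0272 with an exact 95% interval of 0.00873 to 0.0646 that covers counting error only. The segment made up 0.0708%, 0.0359% and 0.135% of Ighv TPM in TREM2+ libraries and 0.880%, 3.87% and 1.94% in TREM2- libraries, and it stayed past the threshold in all 6 fits that leave out 1 library. Ighv1-23, its closest segment and not among the 188, had 0, 0 and 3 reads in the TREM2+ libraries and 4, 0 and 0 in TREM2- libraries.

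Ighv1-52 stood at 2.22, 1.60 and 0.444 TPM in the TREM2+ libraries, against 16.9, 6.11 and 14.2 TPM in TREM2- libraries, with no overlap and with TREM2- replicate 2 nearest to the TREM2+ range. Its log2 fold change was -2.44 ± 0.42 (adjusted p of 0.0199 in limma), and it lost the call without TREM2- replicate 1 or TREM2- replicate 3. With all libraries kept, Ighv1-52 was past the threshold in 10 of 13 other settings. Its near-copy Ighv1-61 stood at 0.739, 0 and 0 TPM in TREM2+ libraries and 29.7, 0 and 3.10 TPM in TREM2- libraries, which overlap. The pseudogene Ighv1-41 stood at 0.394, 0.426 and 0.947 TPM in the TREM2+ libraries, against 2.73, 4.89 and 3.78 TPM in TREM2- libraries, on 1, 1 and 2 reads against 8, 12 and 8. Its log2 fold change was -1.59 ± 0.28 (adjusted p of 0.0241 in limma). It was the only tested segment that reached the filter through the 3 TREM2- libraries alone, so it had to differ, and of the 3 fits leaving out 1 library in which it was tested it stayed past the threshold in 1, losing the call without TREM2+ replicate 1 or TREM2+ replicate 2.

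The heavy segments next in order of p did not pass. Ighv1-34 averaged 3.83 ± 2.81 TPM in TREM2+ libraries and 18.2 ± 7.05 TPM in TREM2- libraries (SD, n = 3 each), with a log2 fold change of -2.16 ± 0.50 and an adjusted p of 0.0653 in limma. Ighv5-4 averaged 3.52 ± 4.09 and 23.7 ± 12.9 TPM, with -2.62 ± 0.64 and an adjusted p of 0.0803 in limma. Ighv5-9-1 was the one tested segment with every TREM2+ library above every TREM2- library. It stood at 31.4, 25.5 and 24.9 TPM in the TREM2+ libraries, against 18.7, 0.974 and 1.13 TPM in TREM2- libraries. The TREM2+ libraries lay close together and TREM2- replicate 1 lay near them. The log2 fold change was 2.69 ± 0.76 with an adjusted p of 0.137 in limma, and 3.35 ± 0.57 with an adjusted p of 0.0192 at a common sum of the segments.

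**Figure D3:**
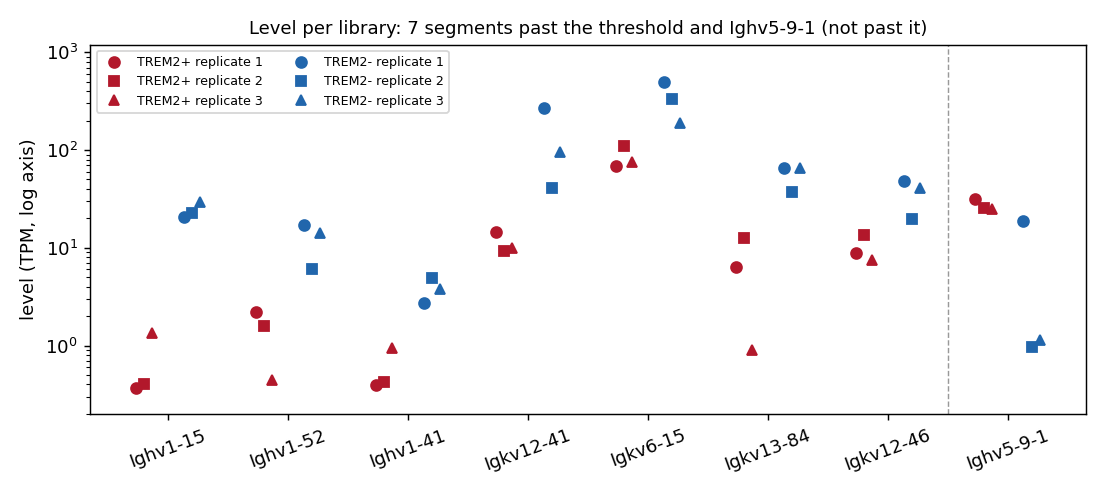
Level in TPM (log axis) of the 7 segments past the threshold and, right of the dashed line, of Ighv5-9-1, which did not pass, with 1 point per library (TREM2+ left of TREM2-). For the 7 segments every TREM2+ point lies below every TREM2- point, widest for Ighv1-15, and for Ighv5-9-1 every TREM2+ point lies above.

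The heavy segments with the highest levels were not those that fell. Ighv1-81 stood at 17.4, 165 and 63.0 TPM in the TREM2+ libraries, against 191, 79.9 and 182 TPM in TREM2- libraries, and was the first heavy segment in 4 of 6 libraries. Ighv9-3 stood at 26.2, 113 and 120 TPM in the TREM2+ libraries, against 163, 4.97 and 124 TPM in TREM2- libraries. Each of these ranges overlapped, and their log2 fold changes were -1.29 ± 0.70 for Ighv1-81 and 0.54 ± 1.15 for Ighv9-3. Of the other segments high at this locus, Ighv3-6, Ighv8-12 and Ighv1-26 had means of 45.7, 41.8 and 41.5 TPM over the 6 libraries and adjusted p values of 0.669, 0.751 and 0.973 in limma.

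By family, Ighv1 with 46 segments held 56.7 ± 5.88% of Ighv TPM in TREM2+ libraries and 62.0 ± 2.77% in TREM2- libraries (SD, n = 3 each). Ighv9 took 5.74%, 10.4% and 19.4% in the TREM2+ libraries and 7.92%, 3.74% and 10.7% in TREM2- libraries, with TREM2+ replicate 3 the highest. Ighv11, known in mice for antibodies of B-1 cells to phosphatidylcholine, summed to 6.28, 2.38 and 1.32 TPM in TREM2+ libraries and to 2.49, 23.0 and 2.64 TPM in TREM2- libraries, high in TREM2- replicate 2 alone. Ighv12, known for the same specificity, stayed under 1 TPM in all 6 libraries. No heavy family had groups that did not overlap.

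At the kappa locus, on chromosome 6 between 67555497 and 70704177, 4 of 76 tested segments fell and 72 did not pass. Igkv6-15 was the most abundant of the 4 and stood at 68.8, 111 and 76.3 TPM in the TREM2+ libraries, against 498, 336 and 187 TPM in TREM2- libraries. Every TREM2- library lay above the TREM2+ range, TREM2- replicate 2 included, whose summed kappa level was near the lowest. The log2 fold change was -1.90 ± 0.36 with an adjusted p of 0.0299 in limma, and the call was lost without TREM2- replicate 1, TREM2+ replicate 1 or TREM2+ replicate 3 and at a common sum. Its closest segment Igkv6-14 was far lower, at 1.5, 10.5 and 0 TPM in TREM2+ libraries and 11.6, 7.73 and 13.4 TPM in TREM2- libraries.

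Igkv12-41 stood at 14.6, 9.30 and 9.88 TPM in the TREM2+ libraries, against 269, 40.6 and 94.96 TPM in TREM2- libraries. The TREM2+ libraries lay within a narrow range, while the TREM2- libraries spread widely above it. Its log2 fold change was -3.09 ± 0.57 (adjusted p of 0.0267 in limma), lost without TREM2+ replicate 3 or TREM2- replicate 3. Igkv13-84 stood at 6.36, 12.5 and 0.898 TPM in the TREM2+ libraries, against 65.0, 37.5 and 65.8 TPM in TREM2- libraries, again with no overlap. Its log2 fold change was -3.27 ± 0.62 (adjusted p of 0.0301 in limma), lost without TREM2- replicate 1 or TREM2- replicate 3 and at a common sum. With all libraries kept, the call held in 6 of 13 other settings. Its near-copy Igkv13-85 stood at 2.24, 19.4 and 4.49 TPM in TREM2+ libraries and 8.41, 15.1 and 50.2 TPM in TREM2- libraries, with overlap. Igkv12-46 stood at 8.95, 13.4 and 7.44 TPM in the TREM2+ libraries, against 48.8, 19.6 and 41.2 TPM in TREM2- libraries. TREM2- replicate 2 lay closest to the TREM2+ range. Its log2 fold change was -1.72 ± 0.36 (adjusted p of 0.0454 in limma). The call held in 2 of 6 fits that leave out 1 library, being lost without replicate 1 or 3 of either group, and at a common sum. In the 13 other settings with all libraries kept, the call of Igkv12-46 held in 5, and those of Igkv12-41 and Igkv6-15 in 10 each.

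Other abundant kappa segments overlapped between groups. Igkv6-23, Igkv1-110, Igkv10-96 and Igkv8-30 had means of 228, 197, 175 and 149 TPM over the 6 libraries, with log2 fold changes of -1.03 ± 0.50, -0.99 ± 0.60, 0.23 ± 0.65 and -0.65 ± 0.61 and adjusted p values between 0.457 and 0.938 in limma. Some segments were uneven within both groups. Igkv8-21 stood at 7.47, 23.5 and 151 TPM in TREM2+ libraries and 145, 38.6 and 9.76 TPM in TREM2- libraries. Igkv4-91 stood at 114, 7.44 and 110 TPM in TREM2+ libraries and 120, 6.74 and 74.2 TPM in TREM2- libraries. Both segments spread over more than a factor of 10 within each group.

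Among kappa families, Igkv6 and Igkv13 had groups that did not overlap. Each of these families includes a segment found lower above, and taking that segment out of its family sum leaves groups that overlap. The family sums are therefore not separate from the results for those segments. Igkv6, with 9 segments, summed to 326, 496 and 356 TPM in the TREM2+ libraries, against 1466, 715 and 535 TPM in TREM2- libraries, and took 19.2%, 17.5% and 15.4% of Igkv TPM against 23.2%, 38.3% and 15.1%. The summed levels were thus apart by little (496 and 535 TPM), and the shares overlapped. Igkv13, with 3 segments, summed to 8.60, 32.6 and 5.39 TPM in the TREM2+ libraries, against 74.0, 52.6 and 117 TPM in TREM2- libraries. As a share of Igkv TPM, Igkv8 took 11.0%, 10.9% and 11.7% in the TREM2+ libraries against 7.93%, 8.94% and 10.1% in TREM2- libraries, and Igkv10 took 9.02%, 7.56% and 10.6% against 5.80%, 3.77% and 7.35%. Both shares lay higher in the TREM2+ libraries without overlap, while the summed TPM of both families overlapped. Igkv4, the kappa family with most members here (26), took 19.9 ± 4.24% in TREM2+ libraries and 18.8 ± 5.05% in TREM2- libraries (SD, n = 3 each). No test was made of family sums or shares.

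The lambda locus, on chromosome 16 between 19085017 and 19260859, has 3 variable segments in this annotation, and none passed the test. Iglv1, the main lambda segment of mice, was the most abundant of all 188 segments, at 151, 306 and 267 TPM in the TREM2+ libraries, against 650, 156 and 270 TPM in TREM2- libraries. The groups overlapped, TREM2- replicate 1 being high and TREM2- replicate 2 low, and the log2 fold change was -0.38 ± 0.49, turning to 0.17 without TREM2- replicate 1 and to 0.23 at a common sum. It made up 88.1%, 78.5% and 92.0% of Iglv TPM in TREM2+ libraries and 80.3%, 89.3% and 74.7% in TREM2- libraries. Iglv2, which is 86.7% identical to Iglv1, stood at 7.44, 11.1 and 10.2 TPM in the TREM2+ libraries, against 97.8, 9.89 and 22.9 TPM in TREM2- libraries. Iglv3, the more distant lambda segment, stood at 12.9, 72.5 and 13.1 TPM in TREM2+ libraries and 61.8, 8.80 and 68.5 TPM in TREM2- libraries. Iglv1 overlaps 2010309G21Rik, and without a stated strand setting reads of overlapping genes cannot be told apart.

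In no library did a single segment hold more than 12.7% of variable TPM. The first segment of a library held 6.29%, 7.04% and 7.41% of variable TPM in TREM2+ libraries and 6.88%, 12.7% and 5.71% in TREM2- libraries. It was Iglv1 in all 3 TREM2+ libraries and in TREM2- replicate 1, Igkv6-15 in TREM2- replicate 2 and Igkv1-110 in TREM2- replicate 3. The first 10 segments held 42.6%, 42.9% and 38.6% in the TREM2+ libraries and 38.1%, 48.2% and 36.0% in TREM2- libraries, or 41.4 ± 2.40% and 40.8 ± 6.55% (SD, n = 3 each). TREM2- replicate 2 was the most concentrated library and TREM2- replicate 3 the least, with the TREM2+ libraries between them.

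The effective number of segments, the exponential of the Shannon entropy, is the number of equally abundant segments that would give the same evenness. It was 61.1, 62.5 and 58.9 in the TREM2+ libraries and 73.7, 50.2 and 75.6 in TREM2- libraries. Between 142 and 179 of the 188 segments were seen in a library. At an equal 6818 variable-segment reads, 155, 154 and 147 would be expected in the TREM2+ libraries and 161, 141 and 167 in TREM2- libraries. The TREM2- libraries thus spanned a wider range than the TREM2+ libraries on each of these measures, and the groups overlapped on each. Reads do not link a segment to a joining segment or a clone here, so a high share can come from 1 large clone or from many cells using the same segment, and these cannot be told apart.

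Within loci, the first 10 heavy segments held 57.0 ± 7.76% of Ighv TPM in TREM2+ libraries and 50.5 ± 5.77% in TREM2- libraries, and the first 10 kappa segments held 53.4 ± 2.53% and 53.4 ± 6.72% of Igkv TPM (SD, n = 3 each). The first heavy segment was Ighv1-74 in TREM2+ replicate 1 (6.66% of Ighv TPM), Ighv1-81 in TREM2+ replicate 2 (14.8%) and Ighv9-3 in TREM2+ replicate 3 (12.2%), while Ighv1-81 led all 3 TREM2- libraries (8.24%, 13.5% and 12.1%). Ighv1-74, first in TREM2+ replicate 1, ranked 27th and 49th in the other TREM2+ libraries and 5th, 47th and 7th in TREM2- libraries. The first kappa segment was Igkv10-96 in TREM2+ replicates 1 and 3, Igkv6-23 in TREM2+ replicate 2, Igkv6-15 in TREM2- replicates 1 and 2 and Igkv1-110 in TREM2- replicate 3. Igkv6-15 reached 18.0% of Igkv TPM in TREM2- replicate 2, the highest share of any kappa segment in a library.

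**Figure D4:**
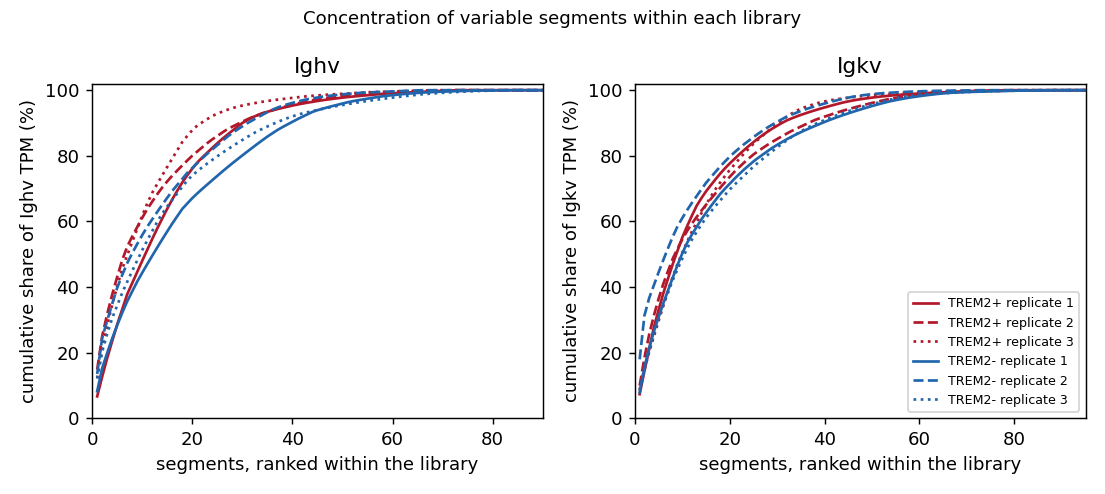
Cumulative share of Ighv TPM (left) and Igkv TPM (right), in percent, against the number of segments ranked from high to low within each library. The heavy curves rise fastest in TREM2+ replicates 2 and 3 (first 10 segments 61.1% and 61.8%) and the kappa curve rises fastest in TREM2- replicate 2 (61.1%).

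The leading segments differed from library to library. In total 23 segments were among the first 10 of at least 1 library, and 2 of them, Igkv6-23 and Iglv1, were among the first 10 of all 6. Pairs of TREM2+ libraries shared 5 to 6 of their first 10, pairs of TREM2- libraries 5 to 7, and pairs across groups 3 to 8. As a description across the 188 segments, Spearman's rho was 0.511 to 0.625 between TREM2+ libraries, 0.557 to 0.734 between TREM2- libraries and 0.508 to 0.752 across groups, and these ranges overlapped. The points share depth and B-lineage content, and segments are not independent. Taking in each library the segment whose share was farthest from its mean in the other 5, examples were Igkv6-15 in TREM2- replicate 2 (12.7% of variable TPM, against a mean of 3.26%), Igkv4-91 in TREM2+ replicate 1 (4.77% against 1.22%) and Igkv8-21 in TREM2+ replicate 3 (4.2% against 0.807%).

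At the 1 cut used, position along the heavy locus differed between the groups without overlap. The 50% of heavy rows nearest to the joining segments include the Ighv5 and Ighv2 families, and also Ighv3, Ighv9 and Ighv14. As shares of Ighv TPM, Ighv5 and Ighv2 each overlapped between groups. Segments of these nearest rows held 51.2%, 47.0% and 44.3% of Ighv TPM in the TREM2+ libraries, against 39.8%, 39.5% and 39.5% in TREM2- libraries. The TREM2- libraries lay within 1 point of each other, and the means were 47.5 ± 3.49% and 39.6 ± 0.182% (SD, n = 3 each). Ighv1-15, Ighv1-52 and Ighv1-41, found lower above, lie among the farther rows, and Ighv5-9-1 lies among the nearer ones. The heavy shares are therefore not separate from the results for those segments. At the kappa locus the same measure was 53.5%, 55.8% and 50.1% in the TREM2+ libraries and 61.6%, 66.6% and 52.5% in TREM2- libraries, with overlap. No test was made of these shares.

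**Figure D5:**
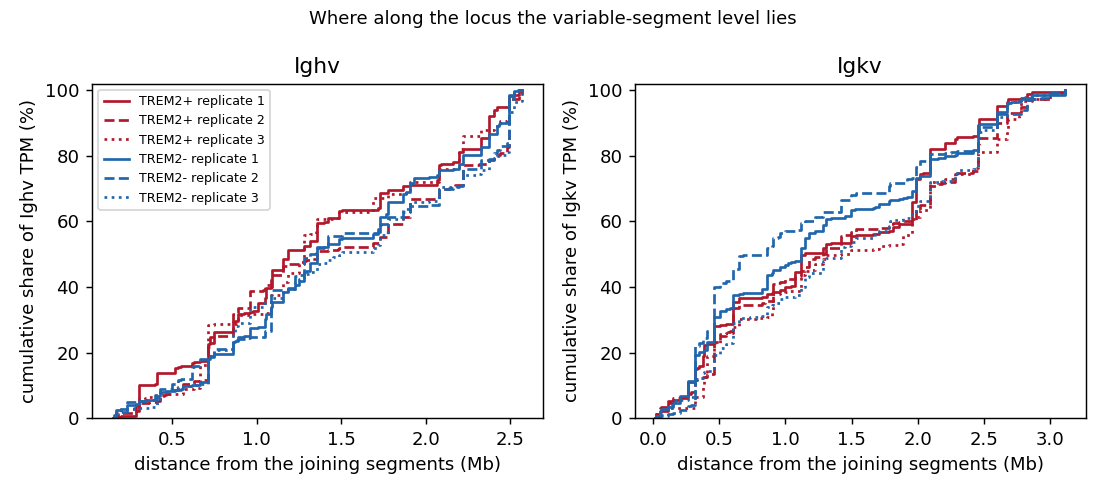
Cumulative share of Ighv TPM (left) and Igkv TPM (right), in percent, against the distance of the segments from the joining segments in megabases, for each library. At the heavy locus the TREM2+ curves lie above the TREM2- curves at the row that parts the nearer from the farther rows, where the nearer rows hold 44.3% to 51.2% in TREM2+ and 39.5% to 39.8% in TREM2- libraries.

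Other genes of the antibody pathway gave few calls. Of the 13 constant genes 11 were tested and none passed, with a median log2 fold change of -0.51 and 10 of the 11 below 0. Igkc stood at 2290, 4168 and 2932 TPM in the TREM2+ libraries, against 9338, 2484 and 4881 TPM in TREM2- libraries. Ighg3 went the other way, at 32.7, 43.2 and 64.4 TPM in TREM2+ libraries and 42.0, 6.30 and 15.2 TPM in TREM2- libraries, which overlap. Its log2 fold change was 1.42 ± 0.56 (adjusted p of 0.322 in limma). Igha, the constant gene of IgA, made up 21.6%, 28.2% and 12.7% of heavy constant TPM in TREM2+ libraries and 33.4%, 32.7% and 37.5% in TREM2- libraries, with no overlap. Of 34 joining and diversity segment rows 18 were at 0 in all libraries and 12 were tested, none of which passed. None of the 5 tested genes of recombination and pre-B cells or of the 6 tested genes of hypermutation and germinal centres passed. Rag1, which cuts the segments for joining, stayed under 0.1 TPM in every library. Neither of the 2 tested octamer transcription genes passed. Of 14 tested genes of B cell receptor signalling Cd81, a membrane protein that macrophages also express, was higher, at 322 ± 15.3 TPM in TREM2+ libraries and 83.3 ± 6.46 TPM in TREM2- libraries (SD, n = 3 each; adjusted p of 0.0040 in limma).

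Among receptors that bind finished antibodies, 2 of 11 tested Fc receptor genes rose and none fell. Fcgr4, an activating receptor for IgG, stood at 1217, 1014 and 1017 TPM in the TREM2+ libraries, against 225, 511 and 379 TPM in TREM2- libraries, with a log2 fold change of 1.61 ± 0.31 (adjusted p of 0.0308 in limma). Fcgrt, which recycles IgG, stood at 200, 253 and 207 TPM in the TREM2+ libraries, against 87.1, 57.0 and 72.6 TPM in TREM2- libraries, with 1.61 ± 0.23 (adjusted p of 0.0099 in limma). Neither pair of groups overlapped. The complement genes C1qa and C1qb were among the macrophage genes that rose, and each of the 11 macrophage genes listed was present in all 6 libraries. They summed to between 38140 and 50088 TPM in TREM2+ libraries and between 59080 and 73817 TPM in TREM2- libraries, most of it from Lyz2. Lyz2 was the 1 gene of the 11 with a log2 fold change below 0 (-1.02), so the sum runs against the rest of the list.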

How the data were processed

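The authors deposited 1 table of gene-level signal, named as TPM, for the 3 TREM2+ and 3 TREM2- libraries. Its 6 columns together sum to 1000000, so the deposited signal keeps each library's depth, and every column was rescaled to 1000000 here (called TPM). The design had assumed TPM. STAR 2.7.10a, Subread, featureCounts 2.0.3 and mm10 are named per the submitters' processing notes, while the sources used here name no annotation, strand setting or treatment of multiply matching reads. Multiplying the signal by GENCODE M21 exon lengths gave whole reads (within 0.01 read) for 98.6% of 36745 matched rows above 0. Intervals of read ratios are exact (Clopper-Pearson, 95%).

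The limma package 3.58.1 (R 4.3.3) tested log2(TPM + 1) of genes with 1 TPM or more in 3 libraries or more, two-sided, with a mean-variance trend and Benjamini-Hochberg adjustment over all 13788 genes at 0.05. For low genes this scale makes changes look smaller. A log2 fold change is given ± its limma standard error. Named segments were the 5 most abundant per locus, the first of each library, all past the threshold, the next 3 by p, and the widest gap of each library. Ighv1-61, Ighv1-23, Igkv13-85 and Igkv6-14 were added as closest copies. Members and lists were chosen with earlier results of these data known. Alternatives covered the pseudocount, filter, scaling, replicate block, library weights, trend, voom, threshold, members and each library left out, and a common sum of the segments was added after seeing the data. The fit was tested on simulated data, where false calls were counted over all genes and not by read number. How often features with few reads are called falsely was therefore not measured. Apart from planted changes, all simulated libraries shared 1 profile, with a fixed spread that was not taken from these libraries. False calls at the spread between replicates seen here were thus not measured either. Groups come from the sample titles. Some genes of the marker and pathway lists are not reported here by name.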

Additional observations from a re-analysis of the deposited data

How the results depend on the processing

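The count of segments lower in TREM2+ libraries, 7 here, was 1 with no low-value filter, 19 on the deposited values, 11 with library weights, 3 with voom on recovered reads, 1 at a threshold of 0.01, 2 with the replicate block (1 of them among the 7) and 3 at a common sum of the segments. It ranged from 2 to 24 when 1 library was left out, and with the other settings tried it stayed within 1.5 times. Of segments higher, 0 here, there was 1 with a filter of 5 TPM, 1 on the deposited values, 4 with library weights and 1 at a common sum, and 0 to 1 with a library left out. Among all genes, 282 were higher and 51 lower here. Higher genes numbered 95 with no filter, 452 with a mean of at least 10 reads, 976 with weights, 444 with voom and 101 at 0.01, and 116 to 342 with a library left out. Lower genes numbered 31 with a pseudocount of 0.1, 3 with no filter, 121 after quantile normalization, 89 on the deposited values, 85 without the repeat family, 389 with weights, 171 with voom and 4 at 0.01, and 7 to 105 with a library left out. The cause was not tested. Deviations of same-numbered libraries had correlations of 0.188, -0.033 and 0.224 for replicates 1, 2 and 3. For replicates 1 and 3 the same-numbered pair was the closest, while TREM2+ replicate 2 deviated most with TREM2- replicate 3 (0.131). These few weak correlations cannot settle whether the numbers pair the libraries. With the replicate block 116 genes were higher and 10 lower, and of the segments 0 were higher and 2 lower. Means of summed deposited values, on another scale by construction, were 138 and 263 for Ighv, 365 and 704 for Igkv and 45.1 and 82.0 for Iglv (TREM2+ and TREM2-). The first 10 segments held 44.2% in TREM2+ libraries, with an effective number of 50.8, over segments above 0 in all 6 libraries. With families summed they held 81.6% and 80.8%, with effective numbers of 16.1 and 15.2 (TREM2+ and TREM2-). No segment past the threshold changed sign. Of the uncalled ones, the log2 fold change turned to 0.054 for Ighv3-6, 1.14 for Ighv1-26, 2.21 for Ighv1-74, 0.42 for Igkv8-30, 0.079 for Iglv1 and 0.59 for Iglv3 with weights, and to 0.50 for Ighv1-26, 0.23 for Iglv1, 0.080 for Iglv3 and 0.25 for Igkv8-21 at a common sum. With 1 library left out it ranged from -0.98 to 1.41 for Ighv9-3, -1.60 to 0.17 for Ighv8-12, -1.03 to 0.71 for Ighv1-26, -0.66 to 0.85 for Igkv10-96, -0.86 to 0.17 for Iglv1, -1.01 to 1.45 for Igkv4-91 and -1.46 to 0.62 for Igkv8-21. Depth limits Ighv1-15, Ighv1-52 and Ighv1-41 most, which rest on few TREM2+ reads.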
